A study of Apis mellifera with 2 samples.

Results

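The honeybee genome annotation holds 4 genes named as opsins of the eye: Lop1, Lop2, Blop and UVop (listed as Uvop). They were taken by name from the count matrices and make up 4 of the 12175 genes listed for both libraries. The study asked how bromocriptine (BRC), an agonist of dopamine receptors, acts on the brain of worker honeybees (Apis mellifera) that forage. It sequenced nuclei from 1 BRC library and 1 library of bees given water (ddH2O), and the series text gives 15 foragers per library, pooled and not told apart. The study's methods give a larger number of pooled brains per library, taken evenly from several colonies, and this difference between the sources was not settled. The sample titles say that the bees were fed, whereas the treatment field names a spray over the whole body. For both groups the tissue is brain, and the protocol states that the ocelli and the compound eyes were taken off at dissection. Per the study's methods all bees were of the subspecies Apis mellifera carnica, collected as returning foragers with pollen. No genotype or age was found in the sources used here, and foragers of both groups came under the same protocol.

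Opsins are receptors of the G protein-coupled kind that bind a light-sensitive pigment and start the response of a photoreceptor to light. Lop1 encodes the long-wavelength (green) opsin of the honeybee compound eye, Blop its blue opsin and UVop its ultraviolet opsin, while Lop2 encodes another long-wavelength opsin that is known from the ocelli, the simple eyes on top of the head. Insect photoreceptors commonly express a single opsin each, which sets the range of wavelengths that the cell responds to.

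In the Amel_HAv3.1 build, Lop1 (gene 413961) lies on linkage group 15 from 7414822 to 7417248 and Lop2 (gene 768250) follows on the same group from 7417495 to 7419329. Only 246 bases separate them. Blop (gene 406128) lies on linkage group 14 from 10150063 to 10152653, where 1 other annotated gene overlaps it, and UVop (gene 406127) on linkage group 10 from 348052 to 351075. Lop1 and Lop2 are related in sequence, so the way reads were divided between them could matter. In the 100 BRC nuclei with the most Lop1, each with at least 39 Lop1 UMIs (unique molecular identifiers, which count captured RNA molecules), there were 7622 Lop1 UMIs and 3 Lop2 UMIs. Few of their reads were thus assigned to the neighbouring gene.

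The files list 20000 barcodes a library, on which 76531513 (BRC) and 77047419 (ddH2O) UMIs were counted. After filtering and removal of doublets, 15900 BRC nuclei with a median of 1919 UMIs and 16717 ddH2O nuclei with a median of 3260 were used. The libraries shared 120 barcodes, carried by 6 of 485 BRC and 0 of 15 ddH2O nuclei that are described below as holding an opsin. With 1 library per group there is no test between groups. The intervals in brackets are exact 95% intervals, which cover counting error only, and the treatment, the dissection and the library cannot be told apart.

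All 4 opsin genes were counted more often in BRC than in ddH2O. Lop1 gave 53930 UMIs in BRC nuclei and 797 in ddH2O nuclei, or 1359 CPM in BRC and 12.9 CPM in ddH2O (CPM are UMIs of a gene per 1000000 UMIs of the same nuclei), a log2 ratio of 6.72 (6.62 to 6.82) and the largest of the group. Lop2 gave 482 and 17 UMIs, or 12.1 CPM in BRC and 0.275 CPM in ddH2O, a log2 ratio of 5.47 (4.77 to 6.26). Both long-wavelength opsins thus differed between the libraries by more than an order of magnitude. The same held for Blop, whereas UVop differed by less. Blop gave 2160 and 112 UMIs, or 54.4 CPM in BRC and 1.81 CPM in ddH2O, with a log2 ratio of 4.91 (4.63 to 5.20). UVop gave 2471 and 533 UMIs, or 62.3 CPM in BRC and 8.62 CPM in ddH2O, and its log2 ratio of 2.85 (2.72 to 2.99) was the smallest. The assay counts molecules from their 3′ ends, so levels were not divided by gene length.

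**Figure D1:**
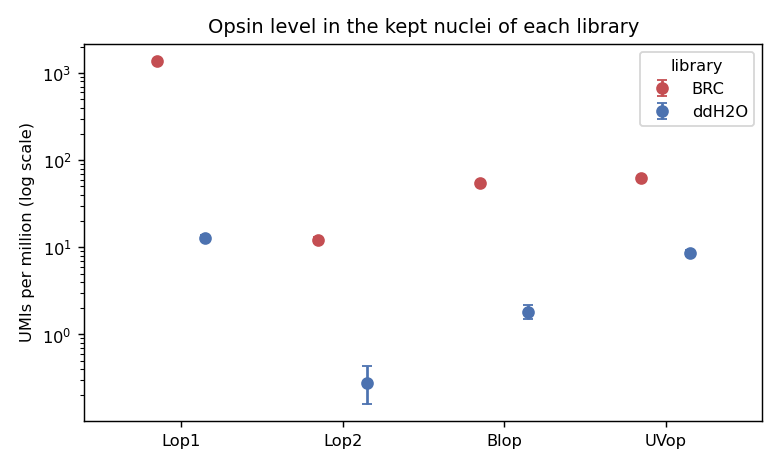
CPM (log scale) of the 4 opsin genes in the kept nuclei of the BRC and the ddH2O library, 1 library each, with exact 95% Poisson intervals. The BRC point lies above the ddH2O point for each gene, with the widest gap for Lop1 (1359 against 12.9 CPM) and the narrowest for UVop (62.3 against 8.62 CPM).

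The opsins were among the genes with the largest ratios between the libraries, though many other genes also differed. Of 10364 genes with at least 100 UMIs, 15.4% were at least 2-fold higher in BRC and 11.1% at least 2-fold lower, against 4 of 4 opsins higher. The median log2 ratio of those genes was 0.00828. Ranked from the highest ratio, Lop1 stood at place 45, Lop2 at 123, Blop at 163 and UVop at 443.

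Other genes of photoreceptors moved with the opsins. Of 4 photoreceptor genes, 3 were at least 2-fold higher in BRC, against 15.4% of all genes tested. The gene trp, named for a light-activated cation channel of Drosophila, had 183 CPM in BRC and 1.84 CPM in ddH2O, a log2 ratio of 6.63. The gene ninaC, which in Drosophila encodes a photoreceptor myosin with a kinase domain, had 396 and 9.66 CPM (log2 5.36). The gene ninaB, a carotenoid-cleaving enzyme of Drosophila that supplies the opsin pigment, had 145 CPM in BRC and 10.9 CPM in ddH2O (log2 3.73). The fourth gene, otd2, encodes a homeodomain factor and had 17.0 CPM in BRC and 11.0 CPM in ddH2O (log2 0.63).

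Several markers of tissues outside the brain also differed. The counts below stand beside 15.4% of all 10364 genes tested at least 2-fold higher in BRC and 11.1% at least 2-fold lower. In BRC, 8 of 10 genes of the head glands (the royal jelly proteins Mrjp1 to Mrjp9 and the alpha-glucosidase Hbg3) were at least 2-fold higher, and the list summed to 8404 CPM in BRC and 833 CPM in ddH2O. PPO, the prophenoloxidase of haemocytes, had a log2 ratio of 5.25 and Vg, the yolk protein precursor made by the fat body, one of 4.52, while 2 hexamerins of the 3 fat body genes tested were lower. Of 7 troponin genes of muscle, 4 were higher and 2 lower, and the Hox gene Antp had a log2 ratio of 1.36. Among brain lists, 3 of 3 neuronal genes were lower in BRC (the list median was -1.63), of 9 optic lobe genes 1 was higher and 5 were lower, of 12 glial genes 3 were higher and 2 lower, and 0 of 4 Kenyon cell genes passed 2-fold. The part of these tissues and of tissue left at dissection in the opsin ratios was not tested.

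The libraries also differed in the mix of opsins. Lop1 took 91.3% (91.1 to 91.6) of the opsin UMIs of BRC, against 54.6% (52.0 to 57.2) of those of ddH2O. For UVop the share was 4.19% (4.02 to 4.35) in BRC, against 36.5% (34.1 to 39.1) in ddH2O. Blop made up 3.66% in BRC and 7.68% in ddH2O, and Lop2 0.816% and 1.17%. In ddH2O the 533 UVop UMIs were spread over 520 nuclei, with at most 3 in a nucleus. The 797 Lop1 UMIs of ddH2O lay in 528 nuclei, and 1 nucleus held 173 of them.

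To see where the opsins lay, the nuclei were clustered with the 4 opsin genes kept out of the variable features. A cluster was called photoreceptor-like where ninaB, ninaC and trp were each at least 5-fold over the median of the other clusters of its library. In BRC clustered without integration of the libraries, 3 clusters met this, numbered 6, 17 and 30. Their ninaC levels, which the rule itself required to be high, were 2627, 2765 and 3302 CPM. The BRC nuclei of other clusters that held no opsin had 27.8 CPM. Clusters 6, 17 and 30 held 1318, 487 and 183 BRC nuclei, whereas ddH2O had 2, 1 and 2 nuclei in them. By markers alone, 1570 BRC nuclei (9.87%, 9.41 to 10.3) and 7 ddH2O nuclei (0.0419%, 0.0168 to 0.0863) had at least 3 ninaC UMIs and 1 trp UMI. The shallowest barcode listed had 1117 UMIs in BRC and 2464 in ddH2O. Any ddH2O nuclei below that depth could not be counted here.

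Each photoreceptor-like cluster had its own opsins. Cluster 6 was rich in Lop1. It had 4302 CPM of Lop1, 4.01 times (3.94 to 4.07) the 1074 CPM of the background, which is the level in the nuclei outside the photoreceptor-like clusters of the integrated data (clusters 3 and 10 there, with 1074 and 1213 BRC nuclei). Its median nucleus held 9 Lop1 UMIs (5th to 95th percentile 2 to 31), against 2 (0 to 6) in nuclei of other clusters, so that single nuclei of these sets overlapped. Blop stood at 1.74 times and UVop at 1.38 times background there.

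Cluster 17 held the short-wavelength opsins. Blop reached 591 CPM and UVop 648 CPM, which were 16.1 times (14.9 to 17.3) and 16.7 times (15.5 to 17.9) their backgrounds of 36.7 and 38.8 CPM. Lop1 stood at 1562 CPM, 1.45 times background, and Lop2 at 2.54 CPM, 0.874 times its background.

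Cluster 30 held the long-wavelength opsin of the ocelli, Lop2, and UVop. Lop2 had 546 CPM, 188 times (169 to 208) its background of 2.91 CPM, and UVop 363 CPM, 9.35 times background. Lop1 (578 CPM, 0.538 times) and Blop (18.0 CPM, 0.490 times) lay below background. Of the 482 Lop2 UMIs in BRC, 364 were counted in these 183 nuclei.

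For Lop1, UVop and Blop the same order was seen when each nucleus was thinned to 1000 UMIs, which sets depth aside. Lop1 was then found in 95% of the nuclei of cluster 6, 74.1% of cluster 17, 44.3% of cluster 30 and 59.8% of the nuclei of other BRC clusters. UVop was found in 38.8% of cluster 17 and 27.9% of cluster 30, against 4.40% of cluster 6 and 4.08% of the other clusters. Blop was found in 25.1% of cluster 17, against 1.09 to 5.39% elsewhere. Lop2 was found in 31.7% of cluster 30 and in under 1% of every other set. Without thinning, the median depths were 2475 UMIs in cluster 6, 2261 in cluster 17, 3418 in cluster 30 and 1849 in the other clusters.

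**Figure D2:**
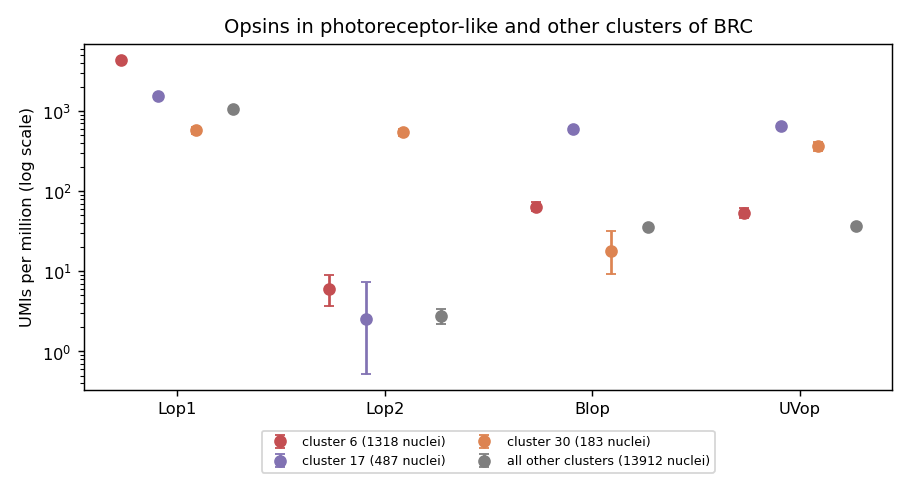
CPM (log scale) of each opsin in BRC clusters 6, 17 and 30, the photoreceptor-like clusters, and in the nuclei of all other clusters, with exact 95% Poisson intervals. Lop1 is highest in cluster 6, Blop and UVop in cluster 17, and Lop2 in cluster 30, where UVop is also above the other nuclei.

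Whether a nucleus had 1 opsin or several was read from nuclei that held an opsin clearly above background. A nucleus was said to hold an opsin when it had at least 3 UMIs of it and at least 10 times the number that the background rate gives for its depth. In a BRC nucleus of median depth this took 21 UMIs of Lop1 and 3 of any other opsin, so that 54 of the 1318 nuclei of Lop1-rich cluster 6 met it (4.10%), whereas 745 (56.5%) reached 3 times background. Lop1 held together with another opsin is therefore seen only where Lop1 is very high.

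In BRC, 485 of 15900 nuclei (3.05%, 2.79 to 3.33) held an opsin. Of these, 445 (91.8%, 88.9 to 94.0) held 1 opsin, 33 held 2, 7 held 3 and 0 held 4, which allows a share of up to 0.619% (limits for a count of 0 are given as 3 counts of the total). UVop alone was held by 162 nuclei, Lop1 alone by 117, Blop alone by 112 and Lop2 alone by 54. Most nuclei with an opsin thus held a single one, and this was so for each of the 4 genes. Among nuclei with several, 24 held Lop1 and Blop, 8 held Lop1 and UVop, 7 held Lop1, Blop and UVop, and 1 held Blop and UVop. Of the 54 nuclei that held Lop2, 0 held another opsin, which allows a share of up to 5.56%.

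The share with 1 opsin was higher inside the photoreceptor-like clusters. There, 367 of 376 nuclei that held an opsin (97.6%, 95.5 to 98.9) held 1, against 78 of 109 (71.6%, 62.1 to 79.8) in the other clusters. The 49 nuclei with Lop1 alone inside these clusters compare with 68 outside, while Blop alone (106 and 6), UVop alone (158 and 4) and Lop2 alone (54 and 0) lay mostly inside.

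**Figure D3:**
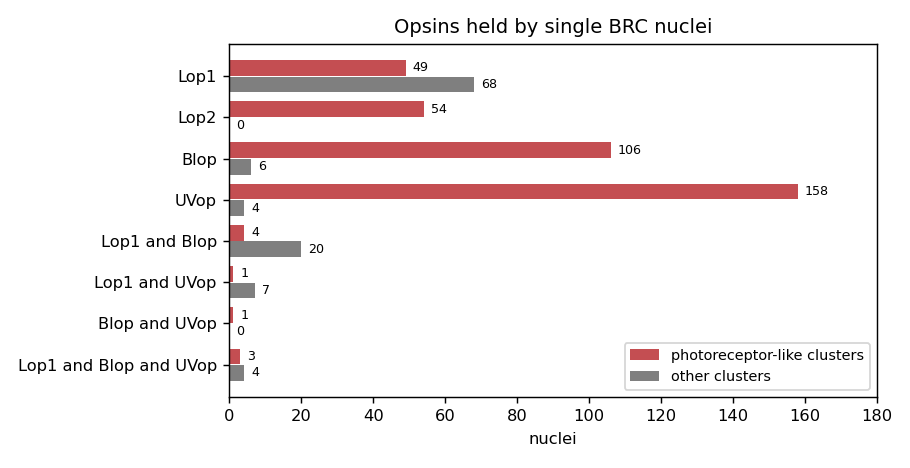
Number of BRC nuclei that held each opsin or combination of opsins, with a bar for photoreceptor-like clusters above a bar for other clusters. Nuclei with UVop, Blop or Lop2 alone lie mostly in photoreceptor-like clusters (158, 106 and 54 nuclei), while most nuclei with Lop1 and Blop (20 of 24) lie in other clusters.

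Blop and UVop, which share cluster 17, were held by different nuclei. Of its 487 nuclei, 103 held Blop, 121 held UVop and 1 held both. The 103 Blop nuclei carried 6.05 Blop UMIs each and 0.0971 UVop UMIs (0.0466 to 0.179), close to the 0.0951 per nucleus outside the photoreceptor-like clusters. The 121 UVop nuclei carried 4.67 UVop UMIs each and 0.0992 Blop UMIs (0.0512 to 0.173), against 0.0900 outside. The opsin that a nucleus did not hold was thus at the level of nuclei from other clusters. Lop1 was at 4.24 UMIs in the Blop nuclei and 3.59 in the UVop nuclei, against 2.63 outside.

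Lop2 and UVop were likewise held by different nuclei of cluster 30. Of its 183 nuclei, 54 held Lop2, 35 held UVop and 0 held both. The Lop2 nuclei carried 6.09 Lop2 UMIs each, 0.204 UVop UMIs (0.102 to 0.364) and 2.15 Lop1 UMIs, and the UVop nuclei 4.34 UVop UMIs each and 0.114 Lop2 UMIs (0.0311 to 0.293). Per nucleus, both UVop in the Lop2 nuclei and Lop2 in the UVop nuclei were above the level outside the photoreceptor-like clusters. That level was 0.0951 UMIs for UVop and 0.00713 for Lop2. Scaled to depth, UVop in the Lop2 nuclei was at 49.0 CPM, 1.26 times (0.629 to 2.26) its background of 38.8 CPM, an interval that includes equality. Lop2 in the UVop nuclei was at 27.9 CPM from 4 UMIs, above its background of 2.91 CPM. The remaining 94 nuclei of the cluster held no opsin by the threshold.

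**Figure D4:**
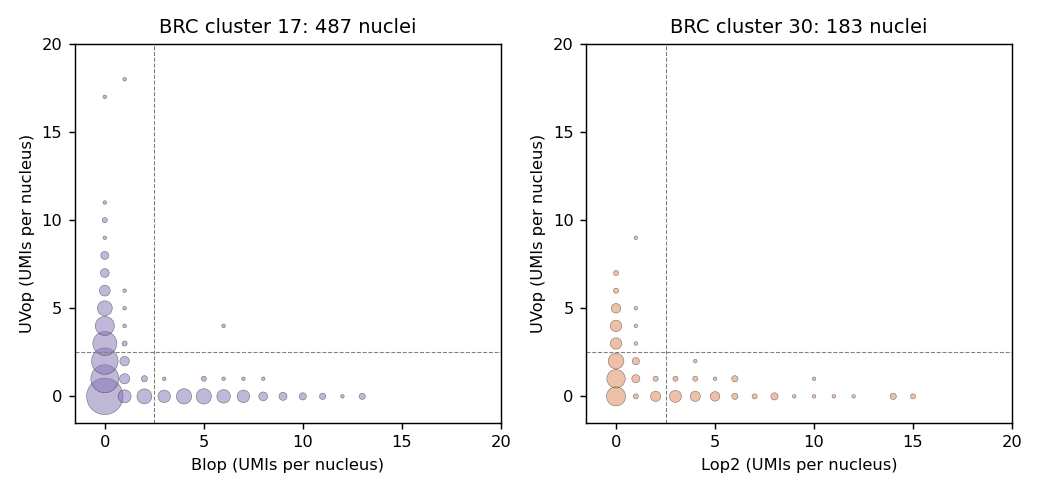
UMIs of Blop and UVop in the 487 nuclei of BRC cluster 17 and of Lop2 and UVop in the 183 nuclei of BRC cluster 30, with the area of a circle in proportion to the number of nuclei and dashed lines between 2 and 3 UMIs. Nuclei spread along the axes, and 1 nucleus of cluster 17 and 0 of cluster 30 held both genes.

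Nuclei with several opsins differed from nuclei with 1 in more than opsins. The 40 BRC nuclei with several had a median of 80 opsin UMIs (highest 394), against 10 (highest 188) in the 445 with 1. They had a median of 1 ninaC UMI, and 27.5% of them had at least 3, against 7 ninaC UMIs and 75.7%. Their depth was a median of 2338 UMIs against 2754, and their doublet score 0.0759 against 0.0489 (0.0470 in nuclei that held none). The part of joined nuclei or of free RNA in them was not tested.

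Of the 40, 24 lay in BRC cluster 9, a set of 1024 nuclei with a median of 1396 UMIs that was not photoreceptor-like. Cluster 9 had 4182 CPM of Lop1, close to the 4302 CPM of cluster 6, but 76.3 CPM of ninaC against 2627 CPM. It had 153 CPM of trp and 139 CPM of ninaB. All 3 markers were above their levels in BRC nuclei outside the photoreceptor-like clusters that held no opsin. Those levels were 27.8 CPM for ninaC, 40.1 CPM for trp and 51.8 CPM for ninaB. Blop (123 CPM) and UVop (106 CPM) were also above background in cluster 9. The muscle gene TpnI was among its 10 leading genes. The fat body gene Vg stood at 268 CPM there, against 26.4 CPM over all kept BRC nuclei. Cluster 9 held 72 of the 99 Lop1 nuclei outside the photoreceptor-like clusters. The BRC nucleus with the most Lop1 (385 of its 4041 UMIs) and the ddH2O nucleus with the most (173 of 3188) were both in cluster 9, where ddH2O had 5 nuclei. Without cluster 9 the share of opsin-holding BRC nuclei with 1 opsin was 96.1% (this alternative was chosen after the data were seen).

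Opsin UMIs were also found in nuclei of nearly every other kind. In BRC nuclei outside the photoreceptor-like clusters, with a median of 1838 UMIs, 82.7% had a Lop1 UMI, 8.35% a UVop UMI, 7.65% a Blop UMI and 0.683% a Lop2 UMI. No integrated cluster of ddH2O was photoreceptor-like, and over all its kept nuclei, with a median of 3260 UMIs, the shares were 3.16% for Lop1, 3.11% for UVop, 0.640% for Blop and 0.102% for Lop2. With each nucleus thinned to 1000 UMIs, Lop1 was found in 60.0% of those BRC and 1.02% of all ddH2O nuclei. The library with the deeper nuclei, ddH2O, thus had the lower shares.

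Of the 53930 Lop1 UMIs in BRC, 33.6% lay in the 2287 nuclei of the photoreceptor-like clusters of the integrated data, against 79.9% of the Lop2, 43.3% of the Blop and 47.6% of the UVop UMIs. The level inside was 2.66 times that outside for Lop1 (2858 and 1074 CPM), 4.01 times for Blop (147 and 36.7 CPM), 4.77 times for UVop (185 and 38.8 CPM) and 20.9 times for Lop2 (60.7 and 2.91 CPM). Lop2 was thus the opsin with the least background for its level. Outside these clusters, Lop1 took 93.2%, UVop 3.37%, Blop 3.19% and Lop2 0.252% of the opsin UMIs of BRC. Inside, the shares were 87.9% for Lop1, 5.70% for UVop, 4.53% for Blop and 1.87% for Lop2.

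The background was neither a fixed number of UMIs per nucleus nor a fixed share of a nucleus's UMIs. In BRC nuclei with fewer than 1500 UMIs, Lop1 was at 2.07 UMIs per nucleus and 1586 CPM. In nuclei with 5000 to 10000 UMIs it was at 4.79 UMIs per nucleus and 705 CPM, and in the 178 nuclei with more it was at 3.70 UMIs per nucleus and 318 CPM. UVop was at 0.0771 UMIs per nucleus and 58.9 CPM below 1500 UMIs, and at 0.199 UMIs per nucleus and 29.3 CPM between 5000 and 10000. Up to that depth the number per nucleus of both genes was thus higher in deeper nuclei, while the CPM was lower. Over the 24 other BRC clusters of the integrated data, Lop1 ranged between 194 CPM (cluster 17 of that clustering, median depth 8393 UMIs) and 2028 CPM (cluster 13, median depth 1377 UMIs), with a median of 1116 CPM. Over 19 ddH2O clusters of at least 20 nuclei it ranged between 2.79 CPM and 940 CPM, with a median of 9.51 CPM. The highest was cluster 2, where 1 of the 51 ddH2O nuclei held 173 of the 174 Lop1 UMIs.

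**Figure D5:**
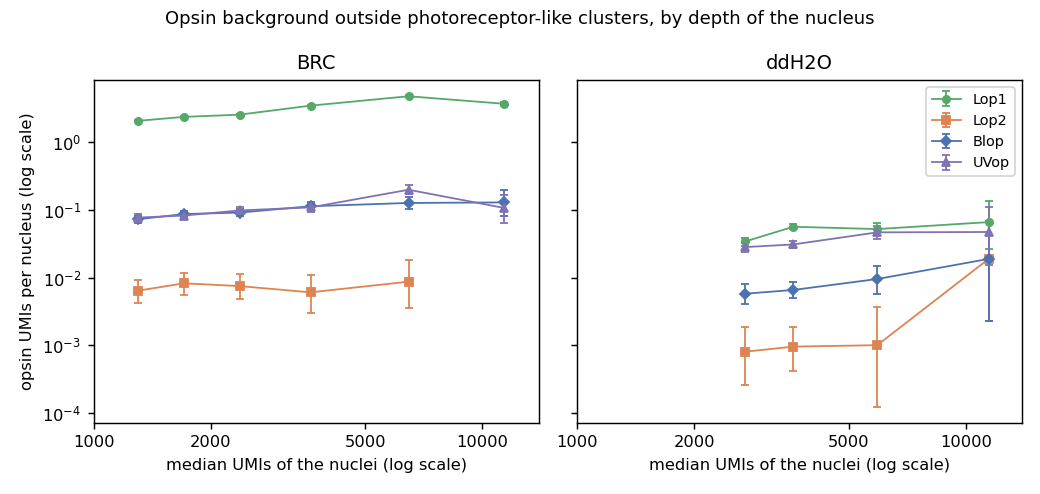
Opsin UMIs per nucleus outside the photoreceptor-like clusters (in ddH2O, all kept nuclei) against the median UMIs of nuclei in bins of depth, both on log scales, for BRC on the left and ddH2O on the right, with bins at 0 left out. In BRC, Lop1 lies at 2.07 UMIs per nucleus in the shallowest bin and 3.70 in the deepest, while ddH2O values stay below 0.1 for all 4 genes.

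In ddH2O, 15 of 16717 nuclei (0.0897%, 0.0502 to 0.148) held an opsin. Of these, 12 held 1 and 3 held 2. In a ddH2O nucleus of median depth, 3 UMIs of any opsin were enough, against 21 of Lop1 in BRC. The shares of the 2 libraries thus rest on unlike thresholds for Lop1. At least 3 Lop1 UMIs were found in 6025 BRC and 14 ddH2O nuclei, and at least 20 in 289 and 2. Lop1 was held by 14, Blop by 2, UVop by 2 and Lop2 by 0, which allows a share of up to 0.0179%. In the integrated data, 14 ddH2O nuclei lay in cluster 10, which was photoreceptor-like in BRC, and 4 of them held an opsin. They were fewer than 20, and their ninaB was 4.08 times the median of other ddH2O clusters, below the 5-fold required. The 14 nuclei were thus not counted as a photoreceptor-like cluster of ddH2O. They had 830 CPM of ninaC, 484 CPM of Lop1 (322 to 700) from 28 UMIs, 69.2 CPM each of Blop and UVop from 4 UMIs each, and no Lop2 UMI. Only 21.4% of them had a Lop1 UMI. With 15 nuclei that held an opsin, the number of opsins per nucleus in ddH2O could not be compared closely with that in BRC, although ddH2O nuclei were the deeper ones.

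Nuclei that held a single opsin were then compared by their other genes, within BRC. The nuclei of a set share a library, so these are descriptions. UVop nuclei had at least 2-fold higher levels than Lop1 nuclei for 274 of 3383 genes with at least 30 UMIs (8.1%) and at least 2-fold lower levels for 567 (16.8%). Among nuclei inside the photoreceptor-like clusters the numbers were 312 higher (11.8%) and 159 lower (6.04%) of 2634 genes, so that the balance of directions turned with the nuclei used. The same turn was seen for Blop over Lop1 nuclei, with 188 of 2705 genes higher (6.95%) and 414 lower (15.3%) over all such nuclei, and 161 of 1825 higher (8.82%) and 90 lower (4.93%) inside. It was seen for Lop2 over Lop1 nuclei too, with 278 of 2376 genes higher (11.7%) and 568 lower (23.9%) over all, and 227 of 1557 higher (14.6%) and 163 lower (10.5%) inside. Most nuclei with Lop1 alone (68 of 117) lay outside these clusters.

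LOC408646 had 299 CPM in UVop nuclei and 6.95 CPM in Lop1 nuclei, from 159 and 2 UMIs (log2 ratio 5.43, 3.55 to 8.49). LOC552224 had 229 CPM in UVop nuclei and 6.95 CPM in Lop1 nuclei, from 122 and 2 UMIs (log2 ratio 5.05, 3.16 to 8.11). Both stood as far apart inside the photoreceptor-like clusters, with 307 CPM in UVop nuclei and 7.19 CPM in Lop1 nuclei for LOC408646 and 235 and 7.19 CPM for LOC552224. LOC410393 had 9.40 CPM in UVop nuclei and 288 CPM in Lop1 nuclei. The serotonin receptor gene 5-ht7 had 11.3 CPM in UVop nuclei and 142 CPM in Lop1 nuclei, from 6 and 41 UMIs. It was not among the 5 genes with the largest ratios downward inside the photoreceptor-like clusters.

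The UVop nuclei of cluster 30 were unlike those of cluster 17 in hth, the homothorax transcription factor gene. It had 3360 CPM in the 35 UVop nuclei of cluster 30 and 142 CPM in the 120 single UVop nuclei of cluster 17, and 3807 CPM in the 54 Lop2 nuclei of cluster 30. Lop1 nuclei of cluster 6 had 125 CPM and Blop nuclei of cluster 17 had 90.6 CPM. As hth was measured in the cells that were clustered, its difference between clusters is a description. Other BRC nuclei that held no opsin had 2466 CPM of hth.

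Within cluster 30 the Lop2 and UVop nuclei differed in svp, the seven-up nuclear receptor gene. It had 468 CPM (382 to 566) in Lop2 nuclei and 41.8 CPM (15.3 to 91.0) in UVop nuclei, with a UMI in 41 of 54 and 4 of 35 nuclei. In the BRC nuclei of other clusters that held no opsin, svp was at 614 CPM (606 to 622), above both sets. Over all nuclei with a single opsin, 139 of 2908 genes were at least 2-fold higher in Lop2 than in UVop nuclei (4.78%) and 312 were lower (10.7%), and inside the photoreceptor-like clusters 140 of 2844 were higher (4.92%) and 282 lower (9.92%). UVop nuclei differed from Blop nuclei in fewer genes, with 117 of 3225 higher (3.63%) and 91 lower (2.82%), and inside the photoreceptor-like clusters 132 of 3035 higher (4.35%) and 69 lower (2.27%). The trp gene had 1344 CPM in UVop nuclei and 634 CPM in Blop nuclei of cluster 17, and ninaC 2906 and 2568 CPM.

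The genes whose levels were most like those of the summed opsins were sought over 45 sums of nuclei by cluster and library, by Pearson's r of log2(CPM + 5) among 10360 genes. The points share their library and depth, and r is a description. The closest was LOC550791 (r = 0.998), with 1199 CPM in BRC and 21.9 CPM in ddH2O, followed by LOC409096 (r = 0.981). Def1, which encodes the antimicrobial peptide defensin, was also among the 8 closest (r = 0.968), with 1387 CPM in BRC and 28.6 CPM in ddH2O. So were CPR14, a cuticular protein gene (r = 0.967), with 403 CPM in BRC and 3.87 CPM in ddH2O, and Obp21, an odorant-binding protein gene (r = 0.962), with 224 and 2.56 CPM. Over the 26 sums of BRC alone, LOC550791 was again the closest (r = 0.996), and Def1, CPR14 and Obp21 were not among the 8 closest.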

How the data were processed

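The deposited matrices contain raw UMI counts by gene and barcode, made by the authors using Cell Ranger on the Amel_HAv3.1 assembly, with no normalization. The submitters' notes name Cell Ranger 7.0.1, and the file headers name 7.2.0 for BRC and 7.0.1 for ddH2O. Filters kept nuclei with 200 to 5000 genes, under 5% mitochondrial UMIs and a ratio of log10 genes to log10 UMIs above 0.85. Of 20000 barcodes each, 18696 BRC and 19878 ddH2O nuclei passed, and Scrublet in scanpy 1.11.5, used in place of scDblFinder, marked 2796 and 3161 as doublets, which were removed (0.8% per 1000 nuclei).

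Seurat 5.3.0 (R 4.3.3) clustered the nuclei on 50 principal components of 2000 variable features without the opsins at resolution 0.5, with CCA integration and without. A cluster needed 20 nuclei to be used. The clusters vary with the linear algebra kernel, which was held fixed (OpenBLAS Haswell). Integration placed 1434 ddH2O nuclei in photoreceptor-like cluster 3 although they lacked the markers, so ddH2O nuclei there were not counted as photoreceptor-like, and clusters 6, 9, 17 and 30 of the report are, unless stated, from the clustering without integration. Background rates come from the integrated one, for ddH2O over all kept nuclei. Sums, CPM and exact intervals were computed in Python 3.11.15 (numpy 2.4.6, scipy 1.17.1, pandas 2.3.3), with figures in matplotlib 3.10.9, and the code was tested on simulated data. Poisson intervals serve levels, conditional intervals ratios and Clopper-Pearson intervals shares.

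Text names the opsins, the photoreceptor genes, the genes closest to the opsins (8) and those with the largest ratios between UVop and Lop1 nuclei (5 each way). Where a gene has an identifier and no symbol, at most 2 were named each way, and hth and svp were chosen after their values were seen. Members and lists were chosen with earlier results of these data known, and the 5-fold threshold for photoreceptor-like clusters after values were seen. Genes of phototransduction and eye pigment without a symbol could not be matched and were not analysed here. Sequences were not used here.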

Additional observations from a re-analysis of the deposited data

Results flagged for a closer look

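Opsin UMIs were also present in the barcodes that the filters and the doublet step left out. The main results do not use these barcodes, while the alternative with all barcodes does. The 4100 such BRC barcodes held 19820 UMIs of Lop1, 91 of Lop2, 918 of Blop and 914 of UVop, against 118, 5, 23 and 130 in the 3283 such ddH2O barcodes. The 2 sets of barcodes differ in total UMIs, so levels were also taken as CPM. In BRC and ddH2O these were 539 and 7.78 CPM for Lop1 and 2.47 and 0.330 CPM for Lop2. They were 24.9 and 1.52 CPM for Blop and 24.8 and 8.57 CPM for UVop. Each opsin was thus above its level in ddH2O there too.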

How the results depend on the processing

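The 4 opsins kept their direction between libraries under every alternative that was run. The summed log2 ratio of 5.98 was 5.55 with all barcodes. The share of BRC nuclei holding an opsin, 3.05%, was 3.86% with all barcodes, 1.47% thinned to 1000 UMIs, 2.0% at 5 UMIs or more, 1.14% at 10, 5.21% at 5 times background, 2.35% at 20 times and 11.5% at 3 times. Of those nuclei 91.8% held 1 opsin, against 95.7% thinned, 96.9% at 5 UMIs, 98.9% at 10, 96.4% at 3 times background and 96.1% without cluster 9. Lop1 background of 1074 CPM was 1170 CPM with doublets kept, 751 with all barcodes, 1255 thinned, 921 with opsin holders left out and 918 without cluster 9. Genes lower in UVop than in Lop1 nuclei numbered 567, against 159 inside photoreceptor-like clusters. With another linear algebra kernel the integrated clusters differed, and 486 BRC nuclei held an opsin in place of 485, with Lop1 background at 1072 CPM. The kernel, the 3-fold multiple, leaving out cluster 9 and the restriction to photoreceptor-like clusters were chosen after the data were seen. With doublets kept, 1 cluster of 1425 BRC nuclei met the photoreceptor rule. It contained 72 of the 563 BRC nuclei that then held an opsin, against 372 of 485 in the main integrated clusters. Most opsin-holding nuclei were thus outside it. Background was then 11.1 CPM for Lop2, 56.2 CPM for Blop and 62.2 CPM for UVop, against 2.91, 36.7 and 38.8 CPM. Levels as multiples of background depend on this step. At a minimum of 10 UMIs no pair of single-opsin sets had 20 nuclei each, so genes were not compared. No paired analysis was possible because each group has 1 library. The cause of these differences was not tested, and the 15 opsin-holding nuclei limit what ddH2O shows.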
